A study of Sus scrofa with 2 samples.

Results

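The microRNAs (miRNAs) that are encoded inside the HOX gene clusters were followed in 2 skeletal muscles of the pig, the oxidative *psoas major* (PMM), which lies deep in the loin, and the glycolytic *longissimus dorsi* (LDM), which runs along the back. The members were chosen by name as every pig entry numbered miR-10a, miR-10b, miR-196a, miR-196b or miR-615, with all arms and copies. They came to 8 of the 668 entries of the miRNA table, 281 of which carried pig names. These were ssc-miR-10a-5p, ssc-miR-10a-3p, ssc-miR-10b-5p, ssc-mir-10b-3p, ssc-miR-196b-5p, ssc-miR-196b-3p, ssc-mir-615-3p and ssc-miR-615-5p. No entry was named miR-196a, which does not show that its reads are absent from the table, since entries without a pig name (PN and PC numbers) are not annotated further. Both muscles were taken from the same 3 untreated female Landrace pigs of 210 days, kept off feed before slaughter, and were cut from their middle section, so that the PMM group and the LDM group hold the same animals. Total RNA was mixed over the pigs within each muscle and 1 small RNA library was read per muscle, so that no difference has a replicate check and no p-value across muscles is given. Intervals are 95% counting intervals and leave out the spread between pigs. The muscles differ in fibre type as well as in body position, and these cannot be told apart here.

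HOX genes encode transcription factors that give cells of the embryo their position along the body axis, and adult tissues keep part of that pattern. Within a cluster the genes lie in the order of the body regions in which they act, from the hindbrain side at one end to the tail side at the other. The miRNA genes lie between or within the HOX genes and are often expressed in similar body regions to their neighbours. Members of the miR-10 and miR-196 families in turn repress HOX messengers, as shown for miR-196 and *Hoxb8* in mouse and for miR-10 and several hox genes in zebrafish. Each miRNA gene gives a hairpin RNA that is cut into a 5p and a 3p arm, of which one is usually kept as the guide strand and the other is mostly lost.

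In the RefSeq gene table of assembly Sscrofa 11.1, which matched 3 of the 4 precursors with entries, miR-10a lies in the HOXB cluster between HOXB3 and HOXB5. The gene of miR-10b lies in the HOXD cluster between HOXD8 and HOXD3, and that of miR-615 lies within HOXC5. In human and mouse miR-196b lies in the HOXA cluster between HOXA9 and HOXA10, nearer to the tail-side end than the other members. miR-196a has a copy in HOXB between HOXB8 and HOXB13 and a copy in HOXC between HOXC10 and HOXC9. That assembly is not the build of the files, so no coordinates are given.

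The consensus sequences of the table are printed for the members with more than 3 reads in both libraries and for PN-49-5p, an entry outside the naming rule with the seed of miR-196b-5p. Capitals mark bases 2 to 8, the seed through which a miRNA pairs with its targets.
ssc-miR-10a-5p: tACCCTGTagatccgaatttgt
ssc-miR-10b-5p: tACCCTGTagaaccgaatttgt
ssc-miR-196b-5p: tAGGTAGTttcctgttgttggg
PN-49-5p: tAGGTAGTttcatgttgttgggc
ssc-miR-10a-3p: cAAATTCGtatctaggggaat
ssc-mir-10b-3p: aCAGATTCgattctaggggaat
ssc-mir-615-3p: tCCGAGCCtgggtctccctct

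The 5p arms of miR-10a and miR-10b shared 1 seed and were 22 nt long. They differed at a single base, written A12T from miR-10b-5p to miR-10a-5p with positions counted from the 5′ end. Reads of these arms can be told apart only through that base. The 3p arms differed by an edit distance of 4 and had different seeds, so their reads are easier to assign, although they share their last 11 bases. The seed of the miR-10 5p arms was found in these 2 of the 668 entries and in no other. The miR-196b-5p seed stood at bases 2 to 8 in 2 entries, miR-196b-5p and PN-49-5p, and the same letters stood 1 base further in, at bases 3 to 9, in 6 entries of the let-7 family including miR-98.

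miR-196b-5p, the HOXA member, differed most. It had 1644 normalised reads in PMM, against 81.7 in LDM, where 71 reads lay behind the value. The ratio was 20.1-fold in favour of PMM (15.9 to 25.9), or 4.19 on the log2 scale with a pseudocount of 1 RPM (normalised reads scaled to a library total of 1000000) added to both values. In rank by level it stood at place 75 in PMM, against place 174 in LDM. It stood at 192 RPM in PMM and 9.34 RPM in LDM. Its 3p arm, usually the lost strand, had 4 reads in PMM and was listed at 0 in LDM. The table lists no value under 3 reads, so that difference was not detectable at this depth.

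miR-10a-5p, the guide arm of the HOXB member, had 21099 normalised reads in PMM, against 6710 in LDM, a 3.14-fold higher level in PMM (3.05 to 3.24). It stood at place 21 by level in PMM, against place 42 in LDM. Its 3p arm, with 137 normalised reads in PMM and 67.9 in LDM, was 2.02-fold higher in PMM (1.48 to 2.79). Both arms of the hairpin were thus higher in PMM, the 3p arm by less.

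miR-10b-5p, the guide arm of the HOXD member, was by far the most abundant of the 8 entries. It had 316039 normalised reads in PMM, against 296869 in LDM, and stood at place 5 in both libraries. It made up 3.69% of the PMM library (3.68 to 3.71), against 3.39% of the LDM library (3.38 to 3.41). The ratio was 1.06 (1.06 to 1.07), and its direction depended on the scaling, since its log2 ratio of 0.09 became -0.38 after centring on the median ratio, -0.18 under a trimmed-mean scaling of the log ratios and -0.29 with a library total that left out the 10 highest miRNAs. Its 3p arm had 278 normalised reads in PMM, against 436 in LDM, a ratio of 0.637 (0.544 to 0.746), and was lower in PMM under each scaling run. The arms of miR-10b therefore had ratios on opposite sides of 1 as deposited.

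miR-615 was close to the floor. Its 3p arm had 22 reads in PMM and 11 in LDM (12.7 normalised reads), a ratio of 1.74 whose interval of 0.808 to 3.97 spans 1. Its 5p arm had 4 reads in PMM and was listed at 0 in LDM. With both arms added, HOXC stood at 26 normalised reads in PMM and 12.7 in LDM, so the data say little on this cluster.

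**Figure D1:**
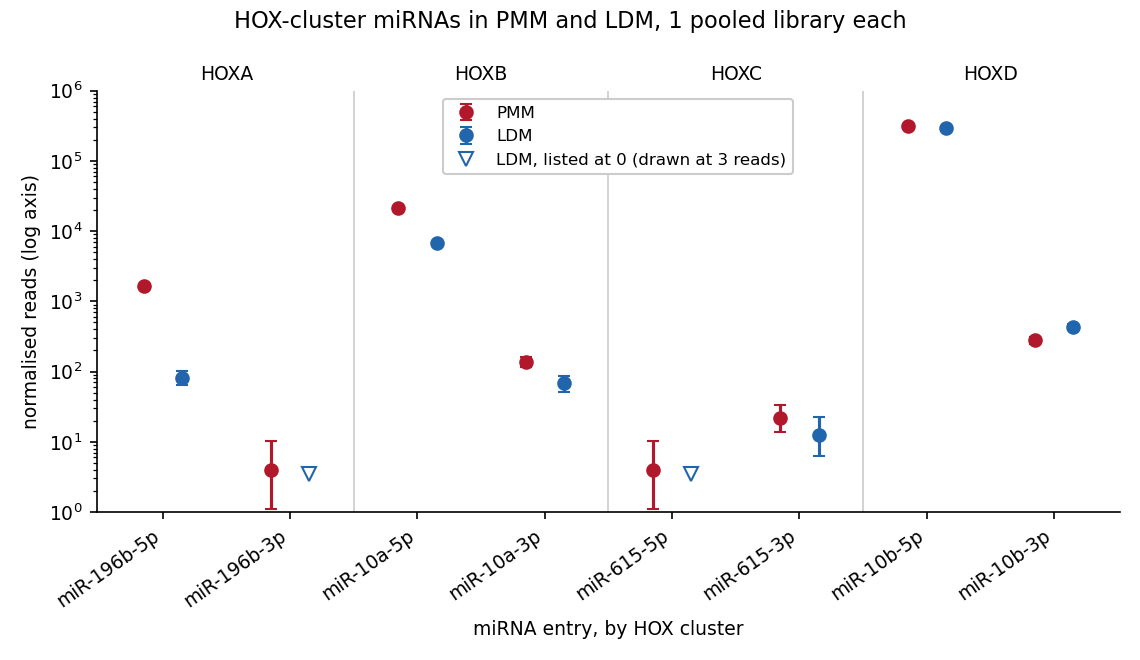
Normalised reads (log axis) of the 8 HOX-cluster miRNA entries in PMM (red, left of each pair) and LDM (blue), 1 pooled library each, grouped by HOX cluster, with bars for the 95% counting interval; open triangles mark entries listed at 0 in LDM, drawn at the value of 3 reads. miR-196b-5p lies at 1644 in PMM and 81.7 in LDM, while miR-10b-5p lies at 316039 in PMM and 296869 in LDM, and the direction of miR-10b-5p turns under 3 other scalings.

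The fold changes were set beside those of all miRNAs, since the ratios of the whole table were not centred on 1. The median log2 ratio was 0.47, or 1.39-fold in favour of PMM, over the 91 entries of at least 100 RPM, and 0.35 over the 185 entries of at least 10 RPM. Of these 185 entries 21.6% lay above the 2-fold limit in favour of PMM and 6.49% beyond the same limit in favour of LDM. After centring the shares were 11.4% and 14.1%. Among the 8 HOX-cluster entries 5 passed the filter of 10 RPM, of which 2 (miR-196b-5p and miR-10a-5p) stood at least 2-fold higher in PMM and 0 stood at least 2-fold lower. With 5 entries from 3 hairpins that count is too small to be read as a share. Of these 5, miR-196b-5p (9.34 RPM in LDM) and miR-10a-3p (16.0 RPM in PMM and 7.76 RPM in LDM) passed the filter only through PMM, where they were higher, so their place among the entries that passed is not read. After centring on the median of 0.47 over the 91 entries, miR-196b-5p stood at 3.72, miR-10a-5p at 1.18 and miR-10a-3p at 0.49 on the log2 scale. On that scale miR-10b-5p stood at -0.38 and miR-10b-3p at -1.09. By rank of the log2 ratio among the 185, from the highest in PMM, miR-10a-5p took place 17, miR-10b-5p place 120 and miR-10b-3p place 162.

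**Figure D2:**
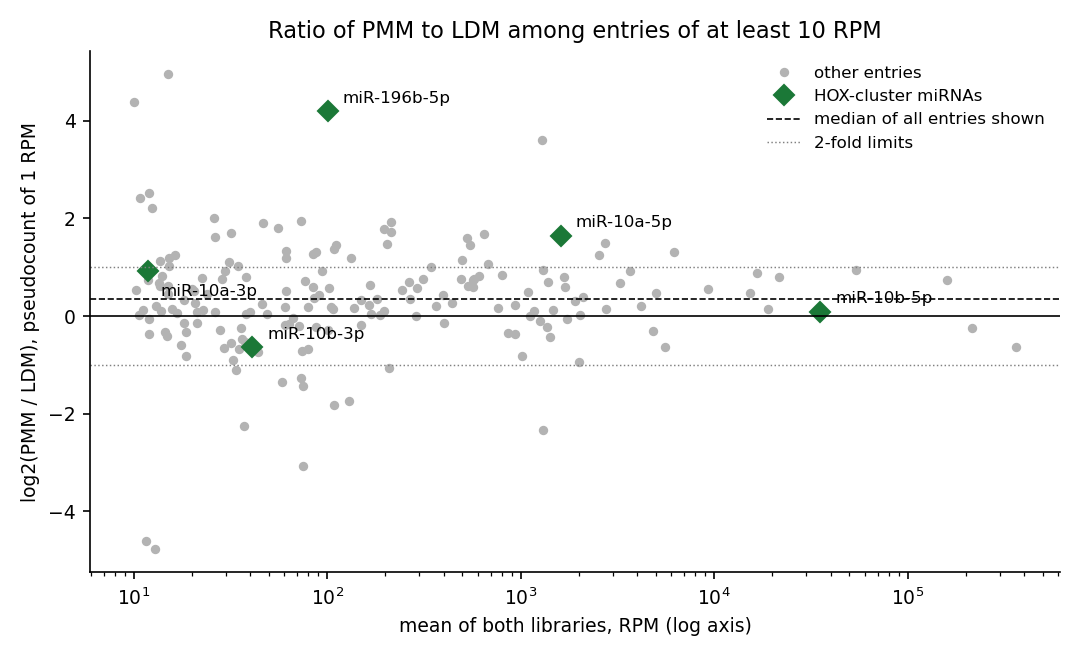
The log2 ratio of PMM over LDM (pseudocount of 1 RPM) against the mean level in RPM (log axis) for the 185 entries that averaged 10 RPM or more, with HOX-cluster miRNAs as green diamonds, other entries in grey, the median of all as a dashed line and the 2-fold limits dotted. miR-196b-5p (4.19) and miR-10a-5p (1.65) lie above the upper limit, and miR-10b-5p (0.09) lies below the median of 0.35, on either side of 0 depending on the scaling.

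Summed by cluster, HOXA stood at 1648 normalised reads in PMM, against 81.7 in LDM (20.2-fold, 15.9 to 26.0), and HOXB at 21236 in PMM, against 6778 in LDM (3.13-fold, 3.04 to 3.23). HOXD stood at 316317 in PMM, against 297305 in LDM, a ratio of 1.06 (1.06 to 1.07) that turned below 1 under the 3 scalings named for miR-10b-5p. The order of these 3 sums in ratio was thus HOXA, HOXB and HOXD, with intervals that did not overlap. The interval of HOXC (2.05, 0.981 to 4.61) overlapped those of HOXB and HOXD. Each of the 3 sums holds 1 hairpin and almost only its 5p arm, so the order repeats that of miR-196b-5p, miR-10a-5p and miR-10b-5p. A cluster and the place of its miRNA within it cannot be told apart here. HOXD carried most of the HOX-cluster reads in both muscles, with 93.2% in PMM (93.2 to 93.3) and 97.7% in LDM (97.7 to 97.8). The share of HOXB was 6.26% in PMM (6.18 to 6.34), against 2.23% in LDM (2.17 to 2.29), and that of HOXA was 0.486% in PMM, against 0.0269% in LDM. All 8 entries together held 3.96% of the PMM library and 3.48% of the LDM library.

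Ratios between members within a library do not depend on how the libraries were scaled to each other. For every 100 reads of miR-10b-5p there were 6.68 of miR-10a-5p in PMM, against 2.26 in LDM, a 2.95-fold change (2.87 to 3.04). The 3p arms, which were counted from other reads with other sequences, gave 49.3 of miR-10a-3p per 100 of miR-10b-3p in PMM, against 15.6 in LDM, a 3.17-fold change (2.25 to 4.46). The change in the 3p arms over that in the 5p arms was 1.07 (0.760 to 1.51), so the arms did not differ in it beyond their counting error. Set against miR-10b-5p, miR-196b-5p was 18.9-fold higher in PMM (14.9 to 24.0), and set against miR-10a-5p it was 6.40-fold higher (5.04 to 8.13). The miR-10 seed family, the sum of both 5p arms, held 3.94% of the PMM library and 3.47% of the LDM library, and miR-10a-5p made up 6.26% of the family in PMM (6.18 to 6.34), against 2.21% in LDM (2.15 to 2.27).

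Since a single base separates the 5p arms, a small share of miR-10b-5p reads could be counted as miR-10a-5p through reading errors, and that share was not measured. Taking 1% of the miR-10b-5p value off miR-10a-5p in both libraries, a share picked after the values were seen, left 17939 normalised reads in PMM and 3741 in LDM, a ratio of 4.79. The ratio was 3.74 with 0.5% taken off and 19.1 with 2% taken off, which left 14778 in PMM and 773 in LDM. The order of these ratios follows from taking the same share in both libraries. Shares that differ between the libraries, and miR-10a-5p reads counted as miR-10b-5p, were not run.

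The 3p arm made up a small part of the reads of either miR-10 hairpin, and a smaller part in PMM. It held 0.645% of the miR-10a reads in PMM (0.542 to 0.762), against 1.002% in LDM (0.763 to 1.29), and 0.0879% of the miR-10b reads in PMM (0.0779 to 0.0988), against 0.147% in LDM (0.132 to 0.162). The odds of the 3p arm in PMM over those in LDM were 0.642 for miR-10a (0.472 to 0.872) and 0.599 for miR-10b (0.513 to 0.699), with intervals that overlap. miR-10a kept more of its 3p arm than miR-10b in each muscle. As a background chosen after these values were seen, the minor arm was set against the major arm in all 35 pig hairpins with both arms at 10 RPM or more. Its share was lower in PMM in 17 and higher in 18, with a median log2 change of 0.0149 and a range of -2.14 to 1.63. miR-10b took place 10 from the lowest, so that a shift of its size was not rare among these hairpins. The minor arm was set by the mean of both libraries. In miR-130b, miR-491 and miR-28, which ranked lower, it was the larger arm in LDM, unlike in miR-10b. Also lower was miR-148a (-1.10), whose minor arm was as small, at 0.0842% of the major arm in PMM and 0.180% in LDM. The 3p arm of miR-10a averaged 10 RPM only through PMM, where it was higher, so the place of miR-10a is not read.

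**Figure D3:**
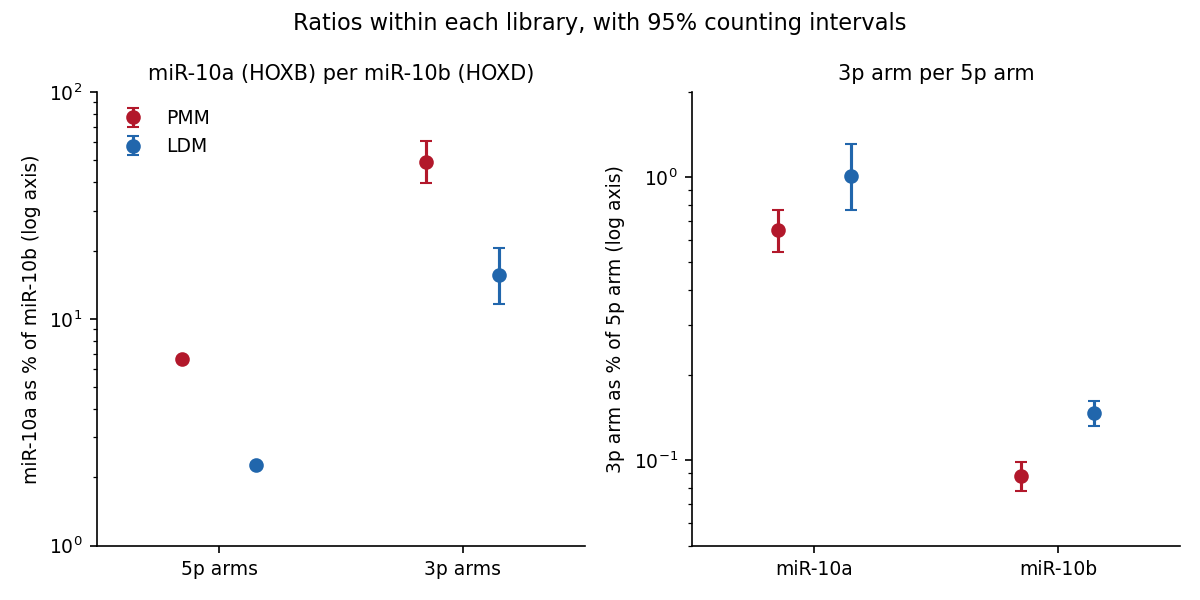
Left, miR-10a as a percentage of miR-10b (log axis) for the 5p and the 3p arms, and right, the 3p arm as a percentage of the 5p arm (log axis) for each hairpin, in PMM (red) and LDM (blue), with 95% counting intervals, most of them hidden by the symbol for the 5p arms. miR-10a per miR-10b is 6.68% and 49.3% in PMM, against 2.26% and 15.6% in LDM, and the 3p arm is lower per 5p arm in PMM in both hairpins.

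**Figure D4:**
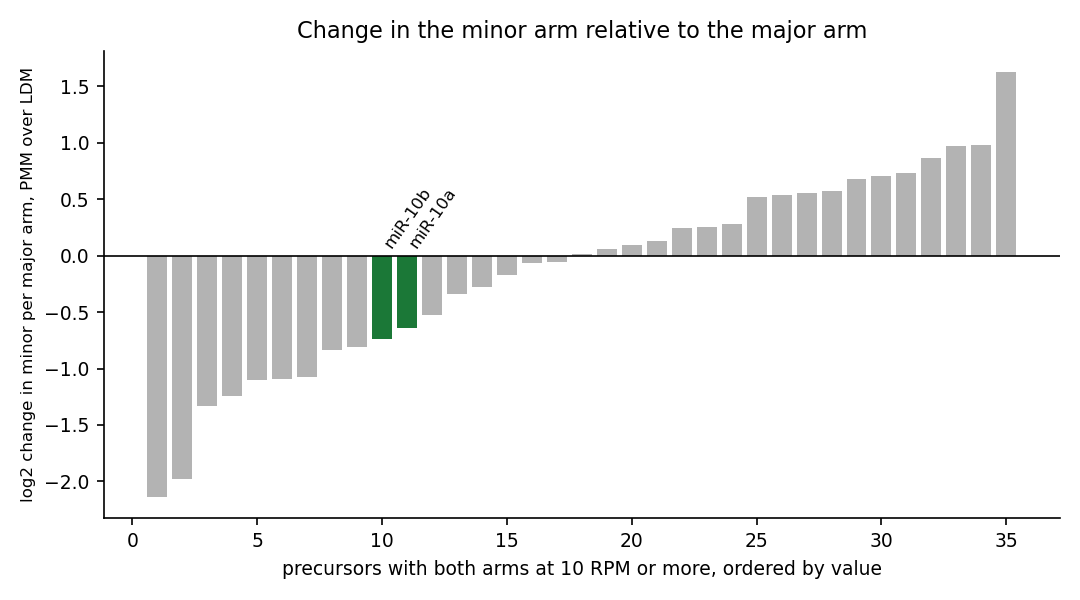
The log2 change (PMM over LDM) in the minor arm per major arm for the 35 pig hairpins with both arms at 10 RPM or more, ordered by value, with miR-10a and miR-10b in green. The value of miR-10b (-0.74) lies among the 17 below 0 and well inside the range. That of miR-10a (-0.64) is drawn, but its place is not read, since its 3p arm averaged 10 RPM only through PMM.

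The entries whose log2 ratio lay nearest to each member were looked up among pig miRNAs of at least 100 RPM, as a likeness over 2 libraries only. miR-196b-5p and miR-10a-3p passed the filter of 10 RPM only through PMM, so their neighbours are listed and not read. Of the entries found, miR-532-5p and miR-28-3p averaged 100 RPM only through PMM, so the filter has a part in their likeness. For miR-196b-5p the nearest was miR-499-5p (3.60), which lies in the myosin gene MYH7B, at a difference of 0.59, and the next, miR-532-5p, was 2.41 away. Around miR-10a-5p (1.65) lay miR-126-5p (1.68), miR-30a-3p (1.59) and miR-28-3p (1.73). Around miR-10b-5p (0.09) lay miR-125b-1-5p (0.10), miR-195-5p (0.10) and miR-145-5p (0.12), all of them on the other side of 0 after centring as well. miR-10a-3p (0.93) was nearest to miR-148a-3p (0.94), let-7i-5p (0.94) and miR-24-3p (0.91). miR-10b-3p (-0.63) was nearest to miR-1-3p (-0.64), with miR-30b-5p (-0.42) further off. By deposited values miR-23a-3p (-0.81) lay between these in distance. The LDM and PMM values of its row look exchanged, which would put it above 0, so it is not read as a neighbour.

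PMM held 8556672 normalised reads and LDM 8750049 (7603850 reads before scaling). The muscle label was checked against miRNAs of known cell types, since the extraction text of the labels speaks of adipose tissue. The 4 skeletal muscle miRNAs (miR-1, miR-133a, miR-133b, miR-206), each read from its 3p arm, summed to 508942 RPM in PMM and 685600 RPM in LDM. That sum was carried by miR-1 (-0.64 on the log2 scale) and miR-133a (-0.24). Their far less abundant 5p arms went the other way. miR-1-5p stood at 0.64, with 55 normalised reads in PMM and 32.2 in LDM, and miR-133a-5p at 0.43. The level of miR-206 was 1.39-fold higher in PMM, which is the median over entries of at least 100 RPM. Of the slow fibre miRNAs miR-499 was 12.2-fold and miR-208b 1.69-fold higher in PMM, and their sum 5.32-fold. The sums for other cells are read beside the median of 1.39-fold over entries of at least 100 RPM. Above it lay fibroblasts (2.37-fold higher in PMM, 1 of 2 markers found by name), smooth muscle (1.68-fold, 2 of 2, with miR-143 at 1.73 and miR-145 at 1.09), endothelium (1.63-fold, 1 of 1) and, slightly, leukocytes (1.43-fold, 1 of 2), and below it lay red blood cells (1.18-fold, 1 of 2). Each of these markers was read from 1 arm of its hairpin. The other arm of the endothelial marker, miR-126-5p, was 3.21-fold higher in PMM, close to miR-10a-5p at 3.14-fold. That of the leukocyte marker, miR-142-5p, stood at 0.77 on the log2 scale, beside the median of 0.47. The fibroblast marker was read from miR-199a-5p (1.24), and its 3p arm, listed in 1 entry with miR-199b-3p, stood nearer to that median, at 0.76. In smooth muscle miR-145-3p stood at 0.61, above that median, and miR-143-5p at 0.26, below it. Both nerve markers were found, and their sum was 4.75-fold higher in PMM, more than that of any other non-muscle cell type listed. It was low, at 24.9 RPM in PMM and 5.13 RPM in LDM. miR-9-5p had 182 normalised reads in PMM and 32.2 in LDM, and miR-124a-3p had 31 in PMM and 12.7 in LDM. Epithelial markers (2 of 5 found) summed to 14 in PMM and 32.2 in LDM, and miR-122 of liver had 10 in PMM and 8.06 in LDM. miR-196b-5p and miR-10a-5p were thus higher in PMM together with several of these markers, while miR-10b-5p stood at 1.06 and miR-10b-3p at 0.637. The part of these cells in the values of miR-196b and miR-10a was not tested. In RNA from whole muscle, fewer cells of a type and less RNA per cell cannot be told apart.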

How the data were processed

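Small RNA of 10 to 40 nt was read single-end from 1 pooled library per muscle. The authors deposited normalised reads per entry, a signal with no value below 0. Their processing notes name the build Sscrofa 10.2. For the mapper, the miRNA reference and the normalisation, details are not given in the sources used here. Of the LDM values above 0, 423 of 424 were whole multiples of 1.15 units, and of the PMM values 592 of 593 were whole numbers (tolerance 0.001). From this pattern reads were taken as LDM values divided by 1.15 and PMM values as they stand, and used for intervals. The row of miR-23a-3p broke the pattern in both columns. It held a whole number under LDM (11204) and a whole multiple of 1.15 units under PMM (6394.66), as if its columns were exchanged. That row was used as deposited. The smallest value above 0 was 3 reads. A further column of authors' p-values and a column of sums were not used.

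Ratios are PMM over LDM of the deposited values. Log2 ratios carry a pseudocount of 1 RPM, 8.65 units, which understates changes of low entries. Ratio intervals are exact conditional binomial, shares exact Clopper-Pearson, and ratios of ratios log-normal. Reads carried no molecular identifiers, so intervals cover counting error only. Scalings, pseudocounts, filters and fold limits were varied. The entries named are all members, entries with a member's seed, the 3 pig entries of at least 100 RPM nearest in log2 ratio to each member of at least 10 RPM, and miR-99 and miR-100. Cell markers, some other arms of their hairpins and some hairpins of the arm comparison are named as well. The members and lists were chosen with earlier results of these data known. Scripts were tested on simulated data. The work was done in Python 3.11.15 with scipy 1.17.1, numpy 2.4.6, pandas 2.3.3 and, for plots, matplotlib 3.10.9.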

Additional observations from a re-analysis of the deposited data

Results flagged for a closer look

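PN-49-5p, an entry outside the naming rule, differed from miR-196b-5p by C12A over their shared 22 bases and had the same seed. The table gives it no pig miRNA name. It had 4 reads in PMM and was listed at 0 in LDM, where the table shows no value under 3 reads. It is given because it lies above that floor in data that no comparison of the report used.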

How the results depend on the processing

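Of the 6 entries above 0 in both libraries 5 kept the sign of their log2 ratio under the 6 scalings and pseudocounts run, the exception being miR-10b-5p. The other 2, listed at 0 in LDM, could not change sign. All scalings but that by library totals multiply every PMM value by 1 factor below 1, which lowers all ratios by construction. After centring the log2 ratios were -0.38 for miR-10b-5p, 1.18 for miR-10a-5p and 3.72 for miR-196b-5p, and by cluster 3.73 for HOXA, 1.18 for HOXB and -0.38 for HOXD. With the trimmed mean they were -0.18 for miR-10b-5p and HOXD, 1.38 for miR-10a-5p and 1.37 for HOXB. With a total that left out the 10 highest they were -0.29 for miR-10b-5p and HOXD, 1.27 for miR-10a-5p and HOXB, and 3.82 for miR-196b-5p and HOXA. With library totals miR-10b-5p and HOXD stood at 0.12, and with a pseudocount of 5 RPM miR-196b-5p and HOXA stood at 3.76. Entries at least 2-fold higher and lower in PMM (40 and 12 of 185) numbered 21 and 26 after centring. Among them 2 HOX-cluster entries were higher and 1 lower (miR-10b-3p). With a total that left out the 10 highest the entries numbered 23 each. They numbered 84 and 35 of 668 with no filter and 19 and 4 of 91 at 100 RPM. A limit of 1.5-fold gave 74 and 25 of 185, with 3 HOX-cluster entries higher and 1 lower. A limit of 4-fold gave 8 and 5, with 1 HOX-cluster entry higher. The log2 change of 1.56 in miR-10a-5p per miR-10b-5p was 1.56 with all arms, and became 1.81, 2.17 and 4.17 with 0.5%, 1% and 2% of miR-10b-5p taken off miR-10a-5p, which were chosen after seeing the data. No paired analysis was possible because each muscle had 1 library. Depth limits miR-615 and miR-196b-3p, with at most 22 reads in a library.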

Other observations

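The miR-99 and miR-100 miRNAs resemble the miR-10 family but lack a base in the seed, so that their bases 2 to 8 differ. The edit distance was 3 from miR-10a-5p to miR-100-5p and 4 to miR-99a-5p, and 6 from miR-10b-5p to miR-99b-5p.
ssc-miR-99a-5p: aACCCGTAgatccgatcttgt
ssc-miR-100-5p: aACCCGTAgatccgaacttgt
ssc-miR-99b-5p: cACCCGTAgaaccgaccttgcg
miR-99a-5p had 5575 normalised reads in PMM and 3651 in LDM (1.53-fold, 1.46 to 1.60). miR-100-5p had 4191 in PMM and 3486 in LDM (1.20-fold, 1.15 to 1.26), and miR-99b-5p had 1476 in PMM and 1429 in LDM, a ratio of 1.03 whose interval of 0.957 to 1.11 spans 1. None of these 5p arms was as far apart as miR-10a-5p or miR-196b-5p. Of the minor arms, miR-99a-3p had 202 in PMM and 79.4 in LDM (2.54-fold, 1.93 to 3.39), and miR-99b-3p had 17 in PMM and 3.45 in LDM, where 3 reads lay behind the value (4.92-fold, 1.42 to 26.2). miR-100-3p went the other way, with 4 in PMM and 10.4 in LDM, a ratio of 0.386 whose interval of 0.0869 to 1.38 spans 1.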
